A study of Mus musculus with 10 samples.

Results

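RNA levels of CD45-positive cells sorted from tumors were set against those of CD45-negative cells sorted from the spleen. The members are whole libraries, chosen by their labels alone: 4 of CD45-positive cells from tumors and 3 of CD45-negative cells from spleens, 7 of the 10 libraries in the series. The remaining 3, splenic CD45-positive cells, are given as values beside them and entered no test of the main comparison. All libraries came from wild-type females of the C3H/HeN strain that carried tumors of SCC7, a mouse squamous cell carcinoma line, with HNSCC, head and neck squamous cell carcinoma, given as the disease. The labels name no treatment or age and no vehicle or tumor-free control, and they call the sorted cells EPC, an abbreviation that is kept here as given. Both groups therefore share the tumor-bearing host, and the groups differ in organ and in the CD45 gate together, so that organ and gate cannot be told apart. Nothing says whether replicates were separate mice, so the p-values below reflect the scatter of these libraries alone, and that scatter may be technical. In sorted bulk samples, fewer cells of a type and less RNA per cell cannot be told apart either.

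Red cells are made from nucleated precursors that fill with haemoglobin, build a spectrin-based membrane skeleton and lose CD45, a phosphatase on the surface of leukocytes, as they mature. The factors GATA1 and KLF1 drive this program through promoters and enhancers that hold GATA and CACCC motifs. Monocytes and macrophages are built by another set of factors, led by PU.1 (Spi1) and C/EBP proteins, and in tumors they are known for phagocytosis, complement production, chemokines and arginine breakdown. The spleen of a mouse is a site of red cell formation under stress, and its CD45-negative precursors are among the most globin-rich cells that can be sorted.

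The sequence before the start of a gene shows where these factors could act. The 250 bases before the start are printed for 2 genes that were almost absent from tumor libraries (Klf1, Pklr) and 3 that were far higher there than in splenic ones (Spp1, Lyz2, Fcgr2b), from RefSeq on GRCm38.p6. Each line runs 5′ to 3′ on the strand of the gene, and capitals mark GATAA and CACCC in the first 2 and GGAAGT, a core that PU.1 can bind, in the last 3, each on either strand.

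Klf1, chr8:84901732-84901981, plus strand: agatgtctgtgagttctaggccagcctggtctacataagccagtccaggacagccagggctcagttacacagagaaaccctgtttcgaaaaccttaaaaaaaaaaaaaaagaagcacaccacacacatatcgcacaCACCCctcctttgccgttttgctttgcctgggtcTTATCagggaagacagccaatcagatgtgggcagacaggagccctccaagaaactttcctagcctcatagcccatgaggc
Pklr, chr3:89135892-89136141, plus strand: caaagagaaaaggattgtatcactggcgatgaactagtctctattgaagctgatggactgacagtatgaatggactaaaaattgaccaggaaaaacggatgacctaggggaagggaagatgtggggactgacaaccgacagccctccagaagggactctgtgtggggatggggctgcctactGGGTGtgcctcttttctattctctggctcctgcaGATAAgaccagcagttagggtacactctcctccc
Spp1, chr5:104434861-104435110, plus strand: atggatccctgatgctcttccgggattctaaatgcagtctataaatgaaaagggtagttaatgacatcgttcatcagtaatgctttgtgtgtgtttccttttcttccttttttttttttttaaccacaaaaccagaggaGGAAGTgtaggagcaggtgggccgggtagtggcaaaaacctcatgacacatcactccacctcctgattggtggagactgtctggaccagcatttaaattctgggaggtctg
Lyz2, chr10:117282273-117282522, minus strand: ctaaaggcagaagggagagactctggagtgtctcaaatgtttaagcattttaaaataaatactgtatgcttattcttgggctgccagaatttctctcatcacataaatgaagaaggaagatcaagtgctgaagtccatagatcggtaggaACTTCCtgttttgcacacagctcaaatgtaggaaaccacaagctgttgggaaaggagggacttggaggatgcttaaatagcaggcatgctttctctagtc
Fcgr2b, chr1:170976072-170976321, minus strand: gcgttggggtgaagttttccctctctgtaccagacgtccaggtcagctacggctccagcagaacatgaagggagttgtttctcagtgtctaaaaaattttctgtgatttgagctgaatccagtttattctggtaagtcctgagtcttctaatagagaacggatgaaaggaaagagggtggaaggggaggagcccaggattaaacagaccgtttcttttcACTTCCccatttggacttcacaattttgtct

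In Klf1 the nearest motif lay 80 bases before the start, and in Pklr the GATAA lay 34 bases before it. The promoters printed were picked with their matches known: the table holds a second promoter for Pklr and for Spp1, and neither holds the letters searched for in that gene. Over the sets, GATAA was in 42.9% of the 49 promoters of 40 genes called lower from 4 erythroid lists and in 22.6% of all 32851 promoters of the table. CACCC was in 71.4% and 52.0%. GGAAGT was in 25.0% of the 72 promoters of 53 genes called higher from 3 myeloid lists, in 6.12% of the erythroid promoters and in 19.7% of all. These are matches of letters, not measured binding, and the genes were chosen for their change.

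The libraries held about 18200000 to 20700000 fragments each, as the steps between the lowest values imply, and FPKM is a level scaled to transcript length and library size. A level of 1 FPKM was reached by 7853 to 7960 genes per library in the splenic group and by 10728 to 10945 in the tumor group. Globins took 62.9% ± 0.562 (SD, n = 3) of summed FPKM in splenic libraries and 3.99% ± 4.29 (SD, n = 4) in tumor libraries, and an exact two-sided permutation test gave p = 0.0571, the smallest that 35 arrangements allow. Tumor replicate 1 stood apart, with 10.4% globin against 1.80% to 1.87% in replicates 2 to 4. Replicates 2 and 3 of the tumor group differed by 1.58 times the squared difference that counting noise gives, replicates 2 to 4 by at most 3.26 times, and each of them from replicate 1 by 15.2 to 18.6 times. The splenic libraries differed among themselves by 3.89 to 9.16 times. Splenic replicate 1 held a trace of genes typical of the tumor libraries. The trace was measured over 22 genes at 100 FPKM or more in tumor libraries and below 1 FPKM in every splenic CD45-positive library. In splenic replicate 1 their median level was 0.148% of the tumor mean, against 0% and 0.003% in replicates 2 and 3. In the splenic CD45-positive libraries, where the genes were picked to be low, it was 0.0617%, 0% and 0.0348%.

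Ptprc, which encodes CD45 (chromosome 1, 138062859 to 138175756), followed the gate. It stood at 1.63, 2.57 and 2.31 FPKM in splenic CD45-negative libraries and at 59.4, 90.1, 91.2 and 92.5 FPKM in tumor libraries, with no overlap. The log2 change was 4.72 ± 0.18 (SE; limma adjusted p = 9.54e-09). The CD45-negative value was low but not 0.

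Most of the measured genes differed between these cells. Of 11208 genes tested, 7563 were called higher in tumor libraries (67.5%) and 2522 lower (22.5%), so that 90.0% passed limma's threshold of a Benjamini-Hochberg adjusted p below 0.05, and the libraries of the groups did not overlap for 88.8%. Each count of list members below has to be read against these shares. The median log2 change of all tested genes was 1.06, and it was 0.64 with trimmed-mean scaling, 0.67 with median-ratio scaling, 1.50 with every library scaled to a common sum and 0.51 with globins removed before that. The share of calls that were higher was 74.99% as deposited, 64.4%, 65.2%, 84.1% and 61.5% under these 4, and 1293 called genes changed sign under at least 1 of them. Of the tested genes 57.4% were called higher and 31.7% lower with trimmed-mean scaling, 58.1% and 31.0% with median-ratio scaling, 76.4% and 14.5% with a common sum, and 54.1% and 33.8% with globins removed. With tumor replicates 2 to 4 averaged and counted as 1 sample, 64.5% were called higher and 21.3% lower. Changes of 5 or more on the log2 scale, which exceed every one of these shifts, were called for 485 genes higher and 103 lower. Of the tested genes 3125 passed the filter through tumor libraries alone and 274 through splenic libraries alone, and such genes had to differ.

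**Figure D1:**
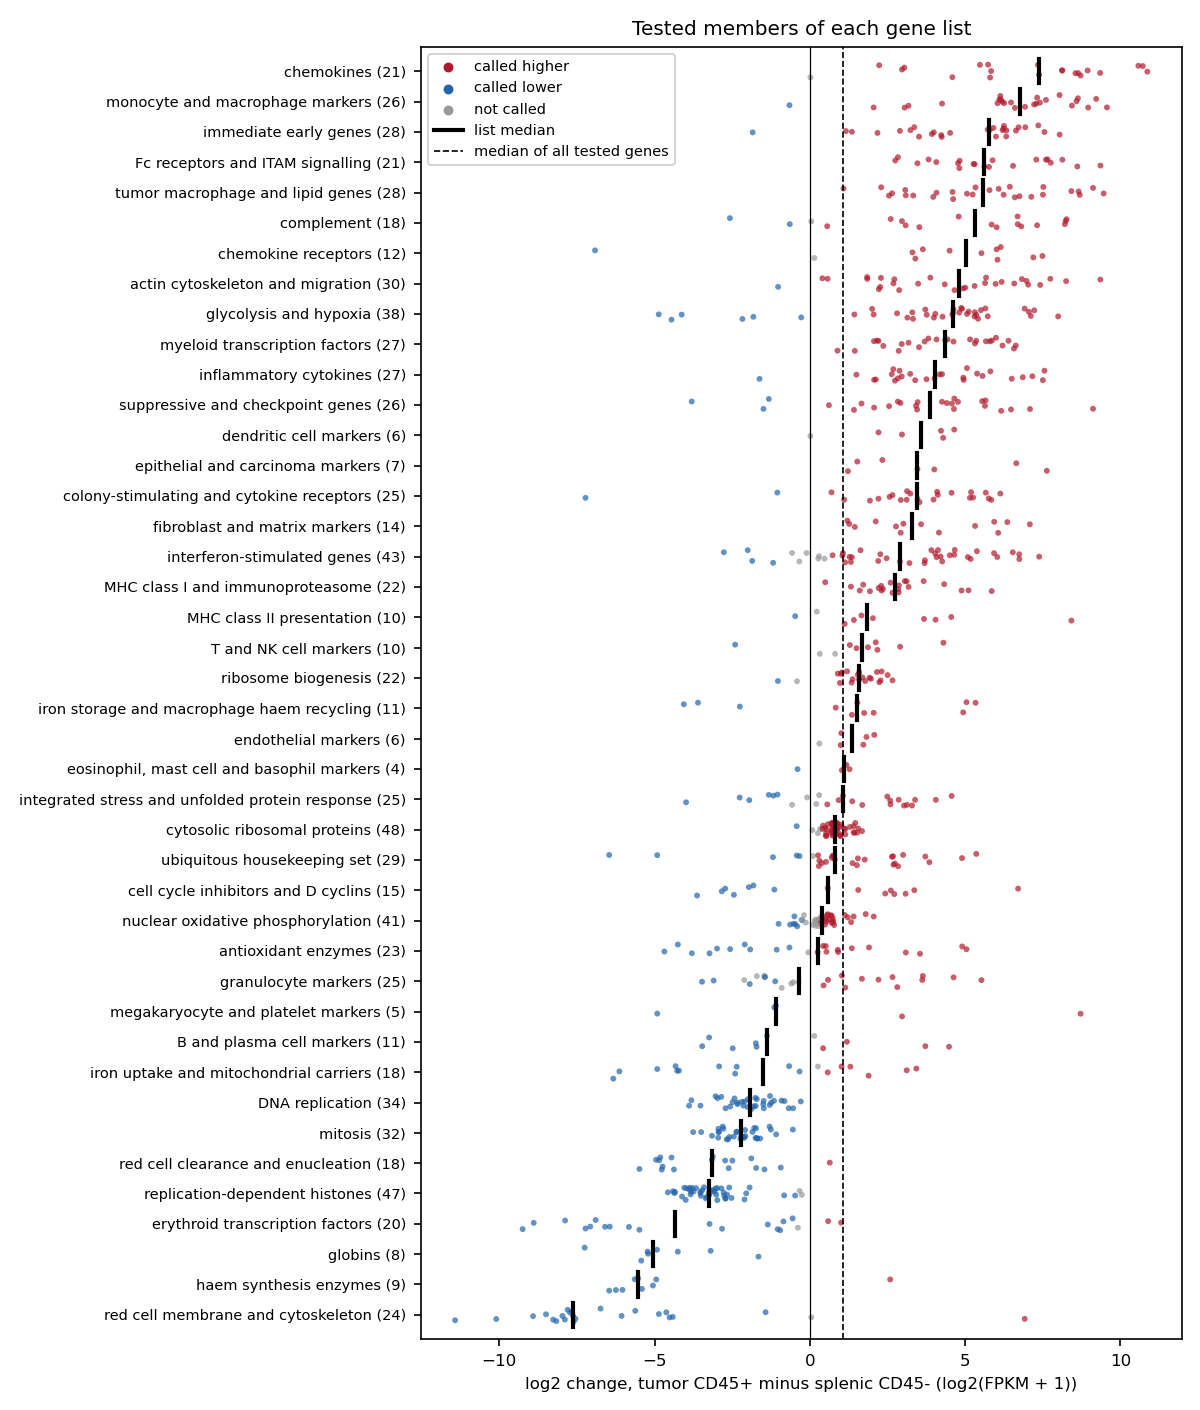
Log2 change (tumor CD45+ minus splenic CD45-) of every tested member of the 42 gene lists, 1 point per gene, with the list median as a bar and the median of all tested genes (1.06) as a dashed line. Red cell membrane genes sit at the low end (median -7.61) and chemokines at the high end (median 7.38).

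The most abundant messengers differed in part, and 9 of the 20 highest genes of the splenic libraries were also among the 20 highest of the tumor libraries, 5 of them ribosomal proteins. Their names come from their rank in level, a choice made after the values were seen. In splenic CD45-negative libraries Hba-a1 (366596 FPKM ± 47313, SD, n = 3) and Hbb-b1 (355368 ± 38080) led, followed by Hbb-b2 (103162 ± 9007), all 3 of them globin chains. Gpx1, a peroxide-reducing enzyme, came next at 6380 ± 782 FPKM, and Slc4a1, the band 3 anion exchanger, was at 4755 ± 250. In tumor libraries Lyz2, the lysozyme of myeloid cells, led at 17721 ± 7825 FPKM (SD, n = 4), ahead of Hbb-b1 at 17521 ± 20507, whose spread exceeded its mean, and of Tmsb4x, an actin-binding peptide, at 15570 ± 819. Ftl1 and Fth1, the ferritin chains that store iron, ranked sixth and seventh. Slc4a1 ranked 10892nd there, and Lyz2 ranked 1888th in splenic libraries.

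Globins fell together, yet stayed among the highest messengers of the tumor libraries. All 8 tested members were called lower (background 22.5%), with a median log2 change of -5.07. Hba-a1, an adult alpha chain, was at 403205, 383411 and 313172 FPKM in splenic libraries and at 40541, 6292, 6231 and 5916 in tumor libraries, a log2 change of -5.21 ± 0.65 (SE; adjusted p = 4.68e-05). The groups did not overlap, and tumor replicate 1 was far above the other tumor libraries. Hba-a1 and Hba-a2 are near-identical copies, so the split of reads between them is uncertain. Hbb-b1, Hbb-b2, Hbb-bs and Hbb-bt share much of their sequence too. Hbq1b, a theta chain of small output, fell further, from 276 ± 26.5 to 1.11 ± 1.48 FPKM (log2 change -7.25 ± 0.40). Hba-x, Hbb-y, Hbb-bh1 and Hbb-bh2, the embryonic chains and their relatives, did not reach the filter.

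Haem synthesis fell nearly as a whole. Of 9 enzymes 8 were called lower, and the exception was Alas1, the first enzyme of haem synthesis in non-erythroid cells, which rose from 1.85 ± 0.17 to 16.2 ± 1.35 FPKM (log2 change 2.59 ± 0.09, adjusted p = 6.24e-09). Its erythroid relative Alas2 (chromosome X, 150547417 to 150570622) was at 3358, 3292 and 3012 FPKM in splenic libraries and at 224, 43.4, 42.2 and 39.4 in tumor libraries (log2 change -5.64 ± 0.55, adjusted p = 8.77e-06). Alas2 thus still exceeded Alas1 in every tumor library, by a log2 ratio of 1.24 to 3.86, against 10.1 to 10.2 in splenic libraries. Alad, the second enzyme, fell to 1.27% of its splenic mean, Cpox to 1.29% and Fech, which inserts the iron, to 2.12%.

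Pklr, the pyruvate kinase of red cells and liver, has start sites that differ between tissues. Its model that begins at 89136142, just after the printed promoter, was at 25.2, 23.9 and 25.4 FPKM in splenic libraries and listed at 0 in all 4 tumor libraries. The model that begins at 89136572, the start known from liver, was listed at 0 in every splenic CD45-negative library. Models share exons, so the values of a model rest on how the authors' program divided shared fragments.

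Of 18 genes of iron uptake and mitochondrial carriers 11 were called lower and 6 higher, against 22.5% and 67.5% of all tested genes, and 9 and 8 with every library scaled to a common sum. Tfrc encodes the transferrin receptor and was at 373, 667 and 578 FPKM in splenic libraries and at 11.7, 18.4, 18.3 and 18.2 in tumor libraries (log2 change -4.92 ± 0.22, adjusted p = 3.55e-08), with no overlap. Slc25a37, the mitochondrial iron importer of erythroid cells, fell from 967 ± 47.1 to 11.04 ± 0.87 FPKM, and Abcb10, its partner, from 322 ± 14.9 to 3.60 ± 0.22. Trf, transferrin itself, rose from 3.23 ± 0.03 to 45.0 ± 6.91 FPKM, and Flvcr1, a haem exporter, rose from 0.77 ± 0.10 to 14.4 ± 0.99.

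Of 11 genes of iron storage and haem recycling 8 were called higher and 3 lower, shares close to those of all tested genes. Hmox1, which opens the haem ring, was at 7.24, 8.32 and 7.75 FPKM in splenic libraries and at 290, 290, 300 and 274 in tumor libraries (log2 change 5.05 ± 0.08, adjusted p = 6.97e-11). The 4 tumor libraries lay within a narrow range here, replicate 1 included. Lrp1, a receptor for haem-bound haemopexin, rose by 5.34 ± 0.10 and Slc11a1, the iron pump of phagosomes, by 4.94 ± 0.09 on the log2 scale. The members that fell were Slc40a1, the iron exporter ferroportin (30.04 ± 4.92 to 1.55 ± 0.28 FPKM), Slc48a1, a haem transporter (log2 change -2.25 ± 0.15), and Blvrb, a biliverdin reductase abundant in red cells (2011 ± 252 to 120 ± 20.3 FPKM). Fth1, ferritin heavy chain, differed little: 4370, 3889 and 3152 FPKM against 6498, 7103, 6952 and 6356, a log2 change of 0.83 ± 0.14 (adjusted p = 4.50e-04), below the median of all tested genes and 0.26 with trimmed-mean scaling, where it was not called.

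Membrane and cytoskeleton genes of the red cell fell furthest of all lists, with a median of -7.61. Of 24 tested members 22 were called lower, and 13 of the 24 passed the filter through splenic libraries alone. Slc4a1 (chromosome 11, 102348820 to 102365281) was at 5040, 4652 and 4572 FPKM in splenic libraries and at 3.25, 0.40, 0.25 and 0.20 in tumor libraries, a log2 change of -11.42 ± 0.40 (adjusted p = 6.87e-09), the largest fall of all genes. Tumor replicate 1 was the highest of its group, still far below any splenic library. Rhd and Rhag, the Rhesus proteins, fell too (log2 changes -8.91 and -8.50). The member that rose was Slc2a1, the glucose transporter GLUT1 of human red cells, which was at 0.32, 0.19 and 0.24 FPKM in splenic libraries and at 148, 154, 153 and 146 in tumor libraries (log2 change 6.92 ± 0.07, adjusted p = 4.45e-11). Slc2a4, another transporter of this family, went the other way, from 50.5 ± 5.24 to 0.04 ± 0.02 FPKM. Cd59a, a shield against complement, did not pass the test as deposited (log2 change 0.05 ± 0.09, and -0.46 with trimmed-mean scaling, where it was called lower, but 0.62 and called higher with a common sum).

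Other genes among the 12 largest falls were Ctse, an aspartic protease (1467 ± 118 to 0.72 ± 0.27 FPKM), Cldn13, a claudin of mouse red cell precursors (900.0 ± 80.0 to 0.14 ± 0.21), and Cd24a, a small surface glycoprotein (4583 ± 445 to 7.75 ± 7.34). Car2 and Car1, the carbonic anhydrases, had log2 changes of -9.30 and -9.20. Hemgn, a nuclear protein of blood precursors, was at -9.30, Trim10, a tripartite motif protein of erythroid cells, at -8.89, and Pdzk1ip1, a membrane protein, at -8.54. The 12 were picked only among called genes without overlap between the groups, so the lack of overlap is no result here. It held for 88.8% of all tested genes.

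Klf1, Gata1 and Epor were nearly absent from tumor libraries, while the list of erythroid transcription factors summed to 341 to 353 FPKM there, against 3969 to 4466 in splenic libraries. Klf1 (chromosome 8, 84901982 to 84905291) was at 788, 719 and 704 FPKM in splenic libraries and at 0.45, 0.18, 0.15 and 0.09 in tumor libraries (log2 change -9.25 ± 0.11, adjusted p = 4.54e-11). Gata1 (chromosome X, 7959260 to 7976663) was at 260, 264 and 230 FPKM and then at 0.27, 0, 0 and 0.02 (log2 change -7.88 ± 0.11). Epor, the erythropoietin receptor, was at 220, 195 and 173 FPKM and then at 0.55, 0.23, 0.27 and 0.22 (log2 change -7.23 ± 0.12). All 3 were below 1 FPKM in every tumor library. Of 20 tested erythroid factors 17 were called lower, and 7 of the 20 passed the filter through splenic libraries alone. The exceptions were Stat5a (log2 change 1.01 ± 0.09) and Stat5b (0.59 ± 0.11), signal carriers that myeloid receptors use too, which were called higher and lay below the median of all genes, and Lyl1, which was not called as deposited but was called lower without tumor replicate 1 (-0.53), without splenic replicate 3 (-0.49) and with trimmed-mean scaling (-0.95). Stat5b was at 0.08 with trimmed-mean scaling and at -0.06 with globins removed.

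Of 18 genes of organelle clearance and enucleation 17 were called lower. Trim58, a ubiquitin ligase of late precursors, was at 41.3, 44.6 and 47.9 FPKM in splenic libraries, at 0.06 in tumor replicate 1 and listed at 0 in replicates 2 to 4. Xpo7, a nuclear exporter needed for nuclear condensation, fell by 4.95 ± 0.14 on the log2 scale. Hipk3, a kinase, was the member called higher, by 0.64 ± 0.13, a call that trimmed-mean scaling ended (0.15).

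Red cell genes differed in how much of their splenic level was left in the tumor libraries. In tumor replicates 2 to 4 the median member of the globin list kept 1.86% of its splenic mean, of the haem enzymes 1.78%, and of the erythroid factors 1.51%, but of the membrane genes 0.08%. In replicate 1 these medians were 12.7%, 2.58%, 2.28% and 0.19%. Replicate 1 thus exceeded the others most in globins, and there Alas2 was at 6.94% while Slc4a1 was at 0.07%. Bpgm, the enzyme that makes bisphosphoglycerate in red cells, was at 12.8% in replicate 1 and 3.03% in the others. In replicates 2 to 4 Slc4a1 was at 0.006% of its splenic mean and Gata1 at 0.003%, while Gypc, glycophorin C, was at 4.60%.

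**Figure D2:**
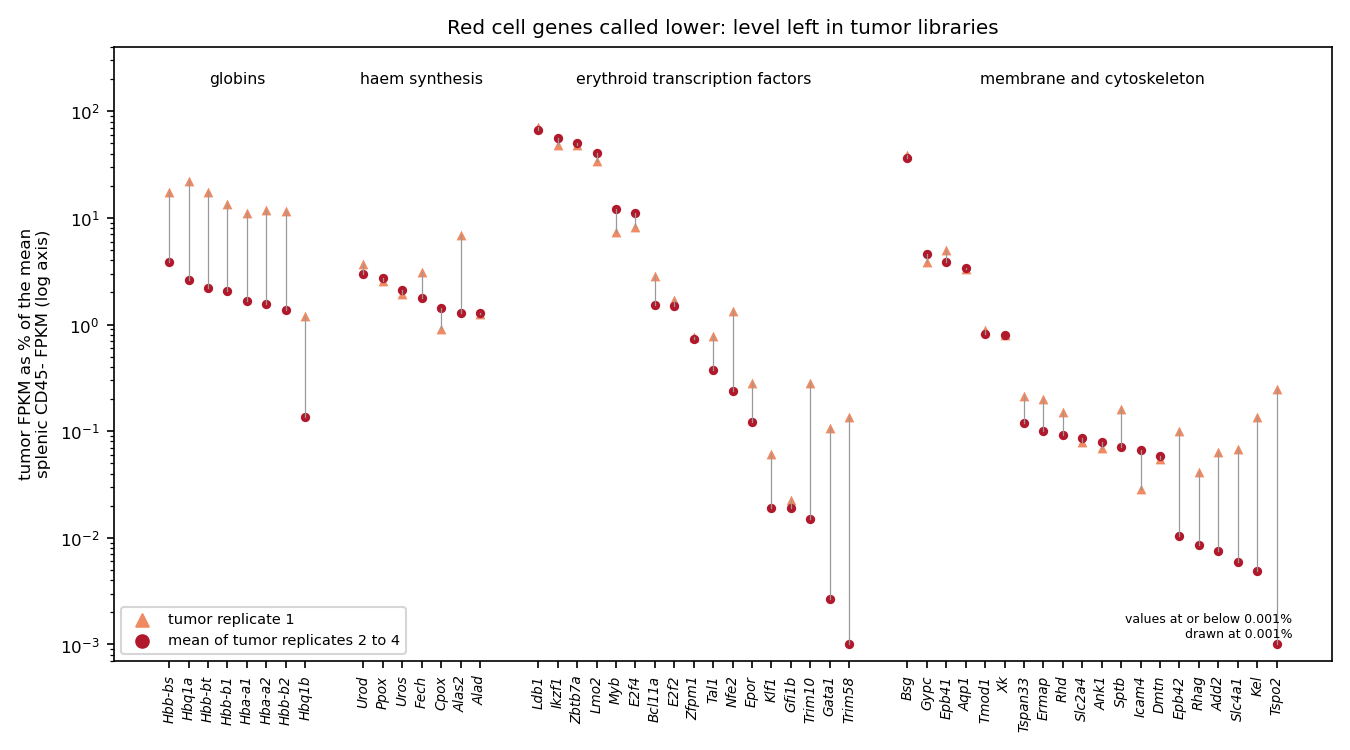
Level left in tumor libraries as a percentage of the splenic CD45-negative mean, on a log axis, for the red cell genes called lower that are named on the x axis, in tumor replicate 1 (triangles) and the mean of replicates 2 to 4 (circles). Over all tested members, the median of the globin list is 1.86% in replicates 2 to 4 and 12.7% in replicate 1. The median of the membrane list is 0.08% and 0.19%.

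Transcription factors of the myeloid lineage rose without exception. All 27 tested were called higher (background 67.5%), with a median log2 change of 4.36, and 15 of the 27 passed the filter through tumor libraries alone. Spi1, which encodes PU.1, rose from 2.00 ± 0.18 to 252 ± 9.52 FPKM (log2 change 6.40 ± 0.07, adjusted p = 4.54e-11). Id2, an inhibitor of helix-loop-helix factors, rose from 1.06 ± 0.25 to 202 ± 9.53, and Cebpb, which drives inflammatory genes, from 1.77 ± 0.42 to 265 ± 54.8 FPKM. Cebpe, which acts late in granulocyte formation, had the smallest change of the 27 (0.89 ± 0.08).

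Genes of monocytes and macrophages rose with them. Of 26 tested 25 were called higher, with a median of 6.77, and 13 of the 26 passed the filter through tumor libraries alone. Cd14, the co-receptor for bacterial lipopolysaccharide, was at 2.55, 0.37 and 0.51 FPKM in splenic libraries and at 1506, 1439, 1472 and 1491 in tumor libraries (log2 change 9.57 ± 0.29, adjusted p = 2.58e-09). Lyz2 was at 52.2, 27.3 and 23.5 FPKM and then at 29160, 14945, 15342 and 11438 (log2 change 8.96 ± 0.35), highest in tumor replicate 1. Msr1, a scavenger receptor, rose by 9.22 ± 0.16 and Lgals3, a galectin, by 8.63 ± 0.21 on the log2 scale. Cd36, a fatty acid receptor, was called lower, at 111, 167 and 194 FPKM against 87.8, 91.8, 96.8 and 113, and the groups overlapped (log2 change -0.66 ± 0.18, adjusted p = 0.0076). The call ended with a common sum (-0.014, adjusted p = 0.952) and in the limma fit of all 10 libraries (adjusted p = 0.0685).

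Genes tied to lipid handling and to macrophages of tumors were all called higher, 28 of 28, with a median of 5.56, and 11 of them passed the filter through tumor libraries alone. Spp1, the matrix protein osteopontin (promoter printed above), was at 2.35, 0.03 and 2.57 FPKM in splenic libraries and at 1730.3, 1549, 1562 and 1689 in tumor libraries (log2 change 9.46 ± 0.38, adjusted p = 1.72e-08). Arg1, which breaks down arginine, was at 1.26, 0.03 and 0 FPKM and then at 792, 718, 745 and 698 (log2 change 9.12 ± 0.26). Neither gene overlapped. The highest splenic value of Arg1 was in splenic replicate 1, and Arg1 is itself among the 22 genes over which the trace described above was measured. Trem2, a lipid receptor, rose to 510 ± 139 FPKM, Cd63, a lysosomal membrane protein, to 850.4 ± 49.8, and Ms4a6d, a membrane protein of macrophages, to 864 ± 54.0.

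Of 18 tested complement genes 15 were called higher and 2 lower, and 9 of the 18 passed the filter through tumor libraries alone. C1qa, a chain of the first component, was at 19.2, 9.85 and 10.99 FPKM in splenic libraries and at 5025, 4195, 4101 and 3805 in tumor libraries (log2 change 8.27 ± 0.21, adjusted p = 8.50e-10). C1qb and C1qc, the other chains, rose by 8.21 and 8.24, and C3ar1, the receptor of C3a, by 7.32. Cd55, which protects cells from complement, was called lower, from 12.02 ± 2.60 to 1.17 ± 0.32 FPKM, and so was C5ar2, a receptor of C5a, at 1.29 ± 0.18 and 0.47 ± 0.16, a call that the fit of all 10 libraries ended (adjusted p = 0.0815 by limma).

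All 21 tested Fc receptors and their signalling partners were called higher, and 12 of them passed the filter through tumor libraries alone, so that they had to differ. Fcgr2b, the inhibitory receptor for IgG (promoter printed above), rose from 1.28 ± 0.99 to 1422 ± 147 FPKM (log2 change 9.36 ± 0.24), Fcgr3, an activating one, from 1.25 ± 0.43 to 624 ± 38.1, and Lilrb4a, an inhibitory receptor of myeloid cells, from 0.92 ± 0.54 to 733 ± 44.7.

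Granulocyte genes did not follow the macrophage genes, and tumor replicate 1 decided their values. Of 25 tested 12 were called higher and 5 lower, against 67.5% and 22.5% of all tested genes, with a median of -0.36. Of the 25, 8 passed the filter through tumor libraries alone. Without tumor replicate 1 the counts over the 25 were 12 and 13, and with replicates 2 to 4 averaged and counted as 1 sample 10 and 2. Summed over the list, replicate 1 held 8.83 times the mean of the other tumor libraries. S100a8, a calcium-binding protein that fills neutrophils, was at 223, 266 and 268 FPKM in splenic CD45-negative libraries and at 1060, 22.5, 23.9 and 17.6 in tumor libraries (log2 change -2.11 ± 1.28, adjusted p = 0.146), and without replicate 1 it was called lower (-3.51). Replicate 1 lay above and replicates 2 to 4 below every splenic library. Ngp and Camp, granule proteins, showed the same split, at 65.6 and 40.4 FPKM in replicate 1 and at most 0.25 and 0.11 in the others. Both were called lower, at log2 changes of -3.47 ± 1.33 and -3.10 ± 1.21, and neither call held with replicates 2 to 4 averaged, or when any 1 library other than tumor replicate 1 was left out. Fpr2 and Padi4, a formyl peptide receptor and a histone-modifying enzyme, did not split, at 84.7 ± 3.27 and 27.0 ± 2.39 FPKM in tumor libraries.

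**Figure D3:**
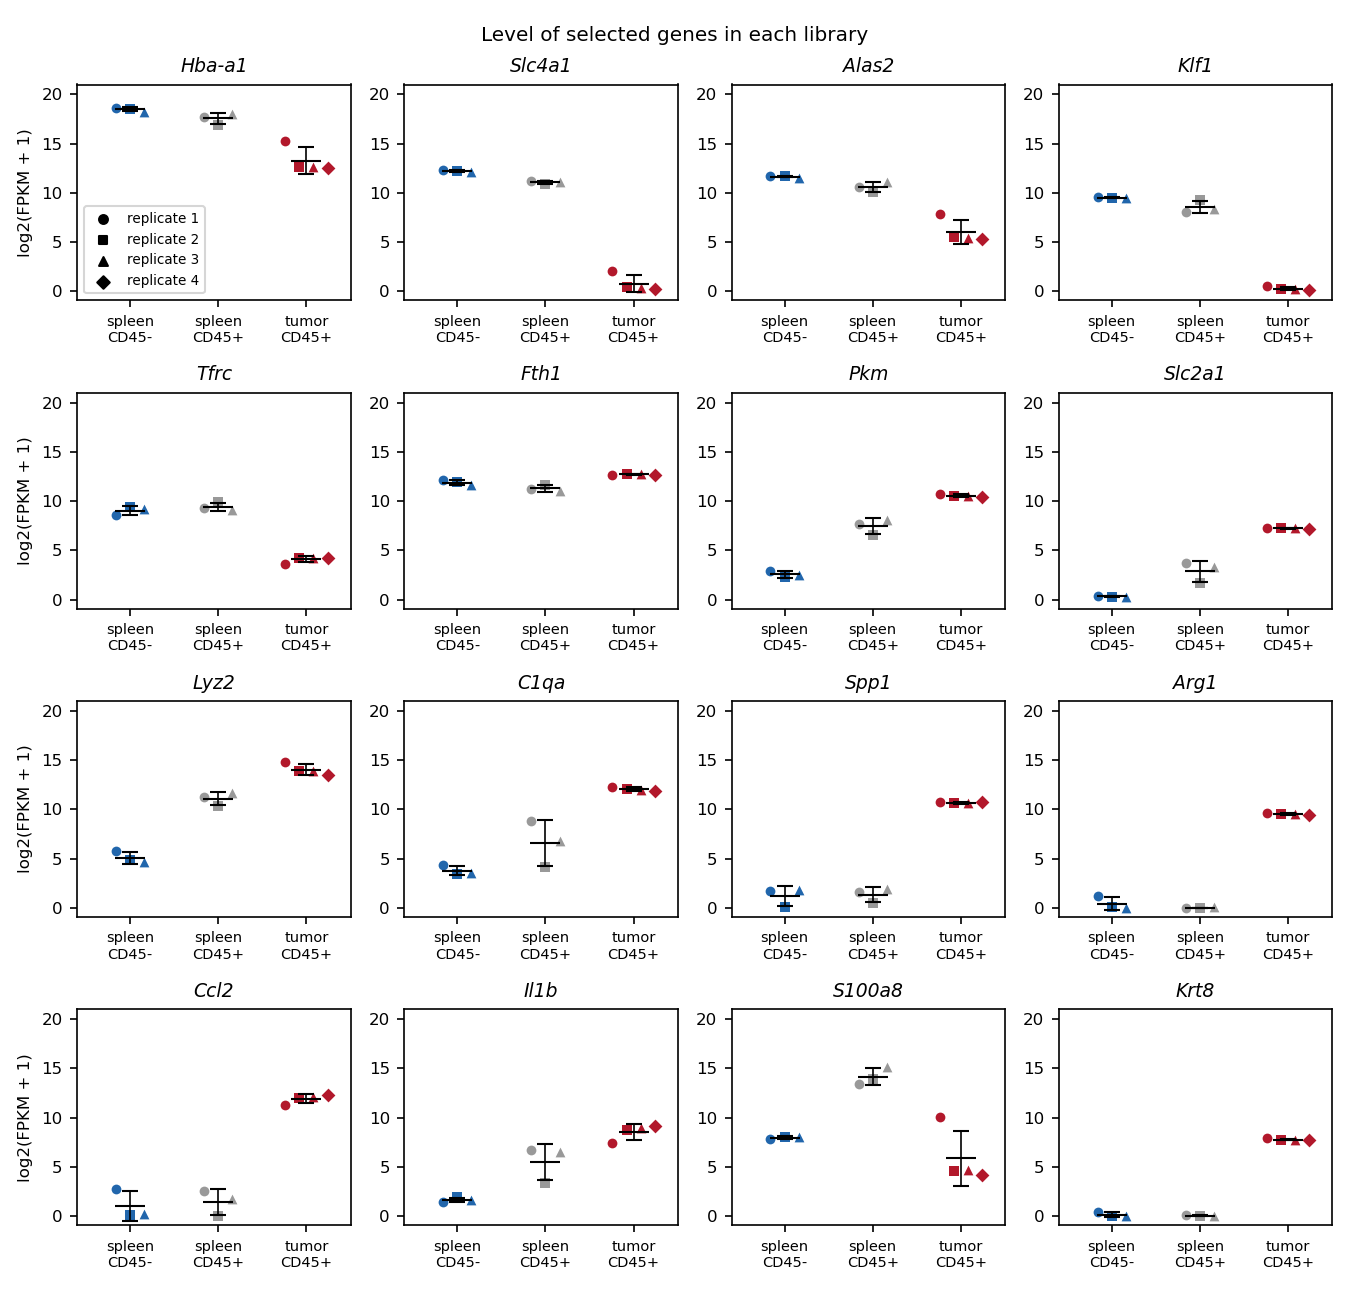
Level of 16 genes in each library as log2(FPKM + 1), with the mean and SD of each group as bars and replicates by marker shape. Splenic CD45+ libraries are shown for reference. Tumor replicate 1 (circles) is high for Hba-a1, Alas2 and S100a8 and low for Ccl2 and Il1b.

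Of 25 tested receptors for colony-stimulating factors and cytokines 23 were called higher and 2 lower, and 14 of the 25 passed the filter through tumor libraries alone. Csf1r, the receptor of macrophage growth factor, rose from 2.83 ± 0.24 to 269 ± 24.02 FPKM (log2 change 6.14 ± 0.09), Tgfbr2, a receptor of transforming growth factor beta, from 0.52 ± 0.06 to 86.5 ± 0.46, and Il4ra, a receptor of interleukin 4, from 0.42 ± 0.09 to 76.1 ± 7.83. Those called lower were Epor and Il1r1, an interleukin 1 receptor at 4.85 ± 0.76 and 1.82 ± 0.14 FPKM.

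Chemokines showed the largest rises of all genes. Of 21 tested 20 were called higher, with a median of 7.38, and 10 of the 21 passed the filter through tumor libraries alone. Ccl2, which draws monocytes, was at 5.83, 0.07 and 0.19 FPKM in splenic libraries and at 2408, 4012, 4459 and 5130 in tumor libraries (log2 change 10.87 ± 0.60, adjusted p = 1.47e-07). Ccl7 and Ccl12, close relatives of Ccl2 with related action, rose by 10.73 and 10.58. In all 3 the highest splenic value lay in splenic replicate 1, and without that library their log2 changes were the highest of the leave-one-out values, 11.74, 11.48 and 11.45. Cxcl2 and Cxcl1, which draw neutrophils, rose to 927 ± 237 and 646 ± 239 FPKM. The summed FPKM of the list in tumor replicate 1 was 0.63 times that of the other tumor libraries. Ccl22, a chemokine of dendritic cells, did not pass the test (log2 change 0.02 ± 0.21), and was at 0.23 and called higher without tumor replicate 1.

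Of 12 tested chemokine receptors 10 were called higher and 1 lower, and 8 of the 12 passed the filter through tumor libraries alone. Ccr1, which binds inflammatory chemokines, rose from 0.37 ± 0.05 to 202 ± 26.2 FPKM. The one that fell was Ackr1, the Duffy antigen that binds chemokines on red cells without signalling, at 121, 139 and 115 FPKM in splenic libraries and at 0.16, 0, 0 and 0 in tumor libraries (log2 change -6.92 ± 0.10). Cxcr4, the receptor of a bone marrow chemokine, was not called as deposited (57.8 ± 11.1 FPKM in splenic and 63.6 ± 8.17 in tumor libraries, log2 change 0.14 ± 0.15), but was called lower with trimmed-mean scaling (-0.42) and higher with a common sum (0.78).

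Inflammatory cytokines were called higher in 26 of 27 cases, but 20 of the 27 passed the filter through tumor libraries alone and had to be higher. Tgfbi, a matrix protein induced by transforming growth factor beta, rose to 393 ± 38.8 FPKM and Il1rn, which blocks interleukin 1, to 227 ± 7.15. Il1b, interleukin 1 beta, was at 1.77, 2.72 and 2.18 FPKM in splenic libraries and at 165, 415, 483 and 569 in tumor libraries (log2 change 6.86 ± 0.38, adjusted p = 1.38e-07). Tnf was at 0.32, 0.04 and 0.16 FPKM and then at 69.5, 220, 229 and 221 (log2 change 7.17 ± 0.39). In both genes tumor replicate 1 was the lowest of its group and still above every splenic library. Artn, a ligand of the glial cell line-derived neurotrophic factor family, was called lower, from 8.19 ± 0.86 to 2.00 ± 0.34 FPKM.

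Of 26 genes of suppression and checkpoints 23 were called higher and 3 lower, and 13 of the 26 passed the filter through tumor libraries alone. Besides Arg1, large rises were those of Cyba, a subunit of the oxidase that makes superoxide (8.48 ± 1.18 to 1300 ± 229 FPKM), and Sirpa, the receptor that reads CD47 (1.62 ± 0.13 to 233 ± 4.48). Cd47, the ligand that Sirpa reads on red cells, was called lower, at 304, 330 and 341 FPKM against 110, 116, 110 and 123 (log2 change -1.49 ± 0.08). Tnfrsf14, a receptor of the tumor necrosis factor family, was called lower too, from 95.6 ± 5.09 to 5.98 ± 1.06. Cd274, which encodes PD-L1, rose from 0.64 ± 0.22 to 17.8 ± 5.05 FPKM.

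All 22 tested genes of class I and the immunoproteasome were called higher, and 1 of them, H2-T23, changed sign with scaling (log2 change 0.50 as deposited and -0.08 with trimmed-mean scaling). Psmb8, an immunoproteasome subunit, rose from 4.95 ± 1.03 to 341 ± 26.2 FPKM and H2-K1, a class I heavy chain, from 196 ± 19.5 to 2525 ± 411. Of 10 tested genes of class II 8 were called higher and 1 lower, near the 67.5% of all tested genes called higher, and 6 were called higher with globins removed. Ctss, a protease that trims the invariant chain, rose from 9.47 ± 2.23 to 3549 ± 144 FPKM, far more than Cd74, the invariant chain itself (52.9 ± 1.67 to 236 ± 86.4). H2-Oa, which restrains peptide loading, was called lower (log2 change -0.47 ± 0.18, adjusted p = 0.0355), but its groups were close, at 1.67 ± 0.20 and 0.97 ± 0.46 FPKM, and the call ended when splenic replicate 1 (-0.44), splenic replicate 2 (-0.44) or tumor replicate 4 (-0.45) was left out and with a common sum (-0.10).

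Of 43 tested interferon-stimulated genes 33 were called higher and 4 lower, against 67.5% and 22.5% of all tested genes. With globins removed 27 were called higher and 7 lower, against 54.1% and 33.8%. Of the 43, 10 passed the filter through tumor libraries alone. Ifi27l2a rose from 17.5 ± 2.91 to 3076 ± 76.6 FPKM, Ifi204, a DNA sensor, to 137 ± 47.0, and Zbp1, a sensor of Z-form nucleic acid, to 168 ± 36.4. The 4 that fell were Rsad2 (viperin), Oas3, Isg15 and Irf9, all antiviral genes of the same response. Rsad2 was at 287, 438 and 363 FPKM in splenic libraries and at 30.7, 60.5, 61.1 and 62.0 in tumor libraries (log2 change -2.77 ± 0.26, adjusted p = 6.06e-06), and Isg15, a ubiquitin-like modifier, fell from 1152 ± 121 to 329 ± 94.9 FPKM. Both kept their direction under all 4 scalings.

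Of 38 genes of glycolysis and the response to low oxygen 32 were called higher and 6 lower, and 15 of the 38 passed the filter through tumor libraries alone. Ndrg1 and Bnip3, targets of the hypoxia factor, rose from 0.31 ± 0.16 to 194 ± 11.8 and from 0.29 ± 0.17 to 169 ± 11.4 FPKM. Vegfa, which calls for vessels, rose from 0.09 ± 0.03 to 36.1 ± 8.42. The genes called lower were largely forms that red cells use: Pklr, Bpgm, Slc16a1, a lactate transporter (149 ± 25.6 to 7.52 ± 0.76 FPKM), Hk1, Pfkm, the muscle form of phosphofructokinase that red cells also hold, and Slc2a3, whose log2 change was only -0.28 ± 0.09 and turned sign when every library was scaled to a common sum.

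Opposite calls of related genes were found in further families. Pairs of related genes were listed in which red cell precursors are known or thought to use one member and other cells another. That choice itself favours opposite calls, and different sorted cells are compared, not cells that switch. Of 38 pairs 33 had both members tested. In 20 the red cell member was called lower and its relative higher, and in 20 the order of the 2 levels turned. These were not all the same pairs: Alas2 and Alas1 had opposite calls without turning, and E2f2 and E2f1 turned without opposite calls. In 6 pairs both members were called lower and in 5 both higher. For pyruvate kinase the log2 ratio of Pklr to Pkm went from 2.01 to 2.52 in splenic libraries to -10.68 to -10.46 in tumor libraries. Pkm was at 6.61, 3.88 and 4.57 FPKM in splenic libraries and at 1694, 1471, 1484 and 1411 in tumor libraries, and Pklr at 29.7, 27.1 and 28.7 and then at 0.03, 0, 0.01 and 0. Earlier in glycolysis, where red cells make bisphosphoglycerate, Bpgm fell from 522 ± 56.1 to 28.5 ± 25.4 FPKM and Pgam1, the glycolytic mutase, rose from 2.97 ± 0.45 to 549 ± 24.2. Hk1, the hexokinase of red cells, fell from 147 ± 6.20 to 32.0 ± 3.83 and Hk3, that of myeloid cells, rose from 0.57 ± 0.04 to 61.6 ± 9.59.

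Structural families turned in the same way. Sptb, a beta spectrin of red cells, fell from 250 ± 41.6 to 0.23 ± 0.11 FPKM, while Sptbn1, that of other cells, rose to 13.9 ± 2.15. Slc4a1 fell while Slc4a2, a widespread anion exchanger, rose from 5.24 ± 0.52 to 18.9 ± 0.08, and Tmod1, which caps actin in the red cell, fell while Tmod3 rose to 47.3 ± 6.13. Slc25a37 fell below Slc25a28, its widespread relative, which rose from 5.38 ± 0.44 to 22.7 ± 1.28. Prdx2, the peroxiredoxin of red cells, was at 3083, 3181 and 2479 FPKM in splenic libraries and at 180, 151, 154 and 126 in tumor libraries, and Prdx1 rose from 101 ± 22.2 to 860 ± 70.7. Among regulators the log2 ratio of Klf1 to Klf4, a factor of monocytes, went from 9.26 to 9.51 in splenic libraries to -5.97 to -4.93 in tumor libraries.

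**Figure D4:**
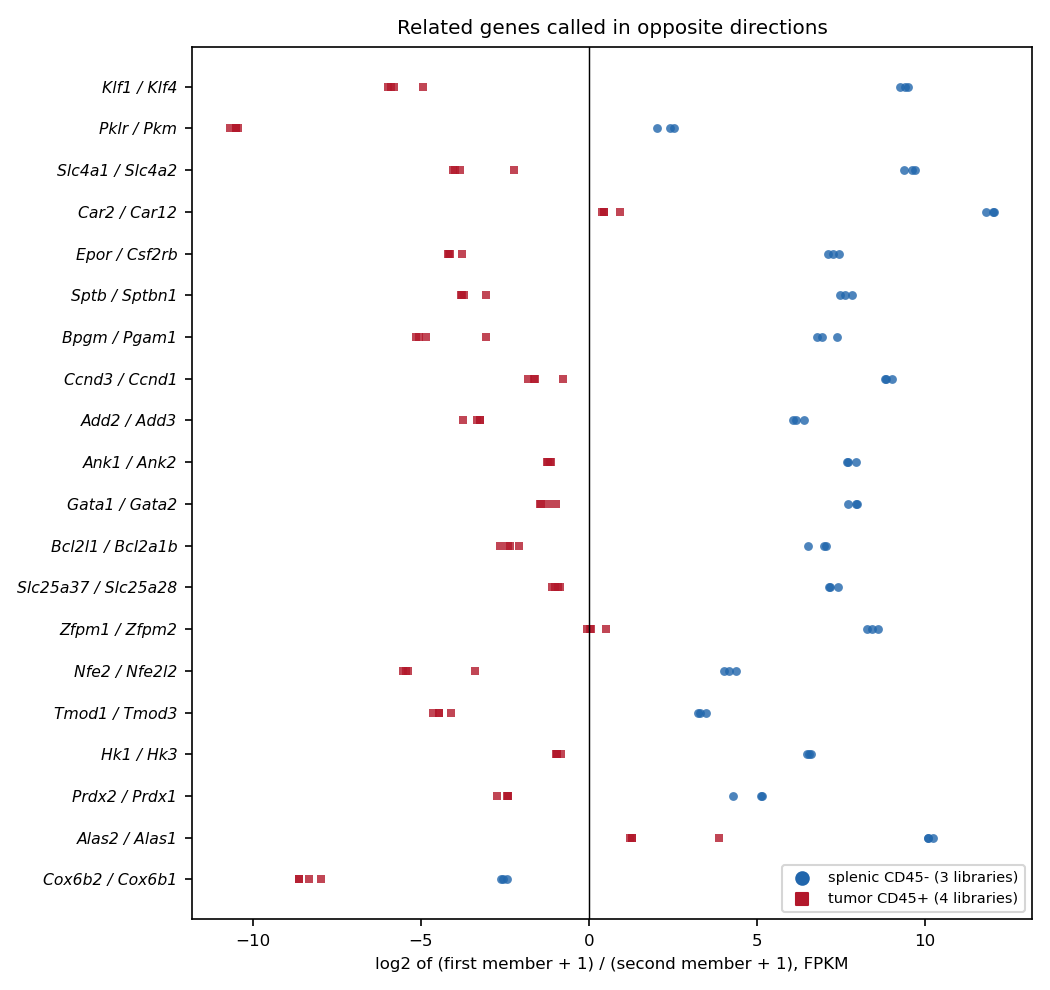
Log2 ratio of the red cell member to its relative in each library for the 20 pairs called in opposite directions, circles for splenic CD45- and squares for tumor CD45+ libraries. The ratio is above 0 in every splenic library for all pairs shown but Cox6b2 / Cox6b1, and below 0 in every tumor library for all but Alas2 / Alas1, Car2 / Car12 and Zfpm1 / Zfpm2.

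Genes of DNA synthesis and division fell as complete lists. All 34 tested genes of DNA replication and all 32 of mitosis were called lower (background 22.5%), with medians of -1.94 and -2.23. With every library scaled to a common sum, which shifts all genes upward, the replication genes gave 29 lower and 1 higher. Rrm2, a subunit of the enzyme that makes deoxynucleotides, was at 488, 535 and 469 FPKM in splenic libraries and at 30.4, 32.7, 36.2 and 31.1 in tumor libraries (log2 change -3.89 ± 0.09, adjusted p = 5.10e-10). Cdc6 and Orc1, which load the replication helicase, had log2 changes of -3.81 and -3.52, and Mcm2, a subunit of that helicase, one of -3.04. Mki67, a protein of dividing cells, was at 232, 555 and 356 FPKM and then at 18.8, 26.2, 26.9 and 32.2 (log2 change -3.76 ± 0.28), and Ube2c, a ubiquitin conjugase of mitosis, fell from 928 ± 111 to 80.8 ± 3.81. The groups did not overlap for any gene of these lists, and tumor libraries still held Rrm2 and Mki67 well above 1 FPKM.

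Regulators of cell cycle entry split by member, 8 of 15 called higher and 7 lower, against 67.5% and 22.5% of all tested genes. Of the 15, 5 passed the filter through tumor libraries alone, so they had to differ. Ccnd3, the cyclin D of red cell precursors, fell from 607 ± 81.9 to 48.3 ± 8.47 FPKM, while Ccnd1 rose from 0.28 ± 0.07 to 134 ± 19.6 and Ccnd2 to 10.6 ± 2.60. Of the inhibitors, Cdkn1a (p21) rose by 3.37 ± 0.17 on the log2 scale and Cdkn2d fell from 332 ± 28.5 to 46.0 ± 7.87.

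Histone genes expressed in S phase were called lower in 45 of 47 cases, but their splenic levels varied widely. Their summed level was 2578, 5306 and 983 FPKM in the splenic libraries and between 394 and 509 in tumor libraries. H4c6, a histone H4 gene, was at 105, 232 and 22.7 FPKM in splenic libraries and at 4.21, 2.82, 3.82 and 1.89 in tumor libraries (log2 change -4.36 ± 0.65, adjusted p = 1.73e-04). Splenic replicate 3 was the lowest and replicate 2 the highest of its group, with no overlap with tumor libraries. H2ac10 and H3c2, genes of histones H2A and H3, showed the same order and had log2 changes of -4.57 and -4.41. Most of these messengers carry no poly(A) tail, copies of one histone differ little in sequence, and the effect of either on the values was not tested.

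Immediate early genes, which cells switch on within minutes of a stimulus or of handling, rose in 27 of 28 cases with a median of 5.76, and 13 of the 28 passed the filter through tumor libraries alone. Fos, a subunit of AP-1, was at 3.84, 1.90 and 3.66 FPKM in splenic libraries and at 598, 838, 841 and 785 in tumor libraries (log2 change 7.56 ± 0.20, adjusted p = 1.04e-09). Atf3, a stress factor, was at 0.57, 0.07 and 0.21 FPKM and then at 200.3, 397, 405 and 385, Zfp36, which destabilises cytokine messengers, rose to 735 ± 209 and Hspa1a, a heat shock protein, to 225 ± 86.3. Tumor replicate 1 was the lowest of its group in all 4 and held 0.62 times the summed level of the other tumor libraries. Btg2, an inhibitor of growth, was the member called lower (log2 change -1.84 ± 0.26). Whether time from tissue to sort differed between organs is not stated, and its part in these values was not tested.

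Actin regulators and migration genes rose in 29 of 30 cases (median 4.80). Vim, vimentin, rose from 3.15 ± 2.03 to 2538 ± 193 FPKM, Anxa2, a membrane-binding annexin, from 2.80 ± 0.47 to 1157 ± 104, and Capg, which caps actin, from 3.91 ± 1.07 to 1041 ± 93.8. Lgals1, a galectin, and S100a4, a calcium-binding protein, which were among the 12 largest rises, reached 5503 ± 1519 and 4747 ± 1518 FPKM. Ezr, ezrin, was called lower (81.8 ± 3.54 to 39.9 ± 3.85 FPKM).

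Of 25 genes of the stress responses 15 were called higher and 6 lower, close to the 67.5% and 22.5% of all tested genes. With trimmed-mean scaling the counts were 14 and 9. Pdia4, a folding enzyme of the endoplasmic reticulum, rose by 4.57 ± 0.14 on the log2 scale, while Eif2ak1, the haem-regulated kinase that matches globin synthesis to haem, fell from 240.3 ± 25.0 to 14.2 ± 1.17 FPKM. Of 23 antioxidant genes 12 were called higher and 10 lower, to be read against the same shares, and 8 and 12 with trimmed-mean scaling. Prdx5, a peroxiredoxin, rose from 16.8 ± 2.56 to 534 ± 68.7 FPKM, while Gpx1, which removes hydrogen peroxide, fell (log2 change -2.57 ± 0.17).

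Ribosomal and respiratory genes moved little, and their direction rested on the scaling. Of 48 ribosomal protein genes 44 were called higher as deposited (median 0.81), 15 with trimmed-mean scaling and 13 with globins removed, where 8 were called lower. Of 41 nuclear genes of oxidative phosphorylation 23 were called higher and 7 lower (median 0.40), but 6 and 15 with trimmed-mean scaling (median -0.17), and 14 of the called genes changed sign under at least 1 scaling. No direction is given for these lists. Ribosome biogenesis genes, in contrast, were called higher in 20 of 22 cases both as deposited and with trimmed-mean scaling. With globins removed 16 were called higher and 2 lower. Of the 22, 3 passed the filter through tumor libraries alone.

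**Figure D5:**
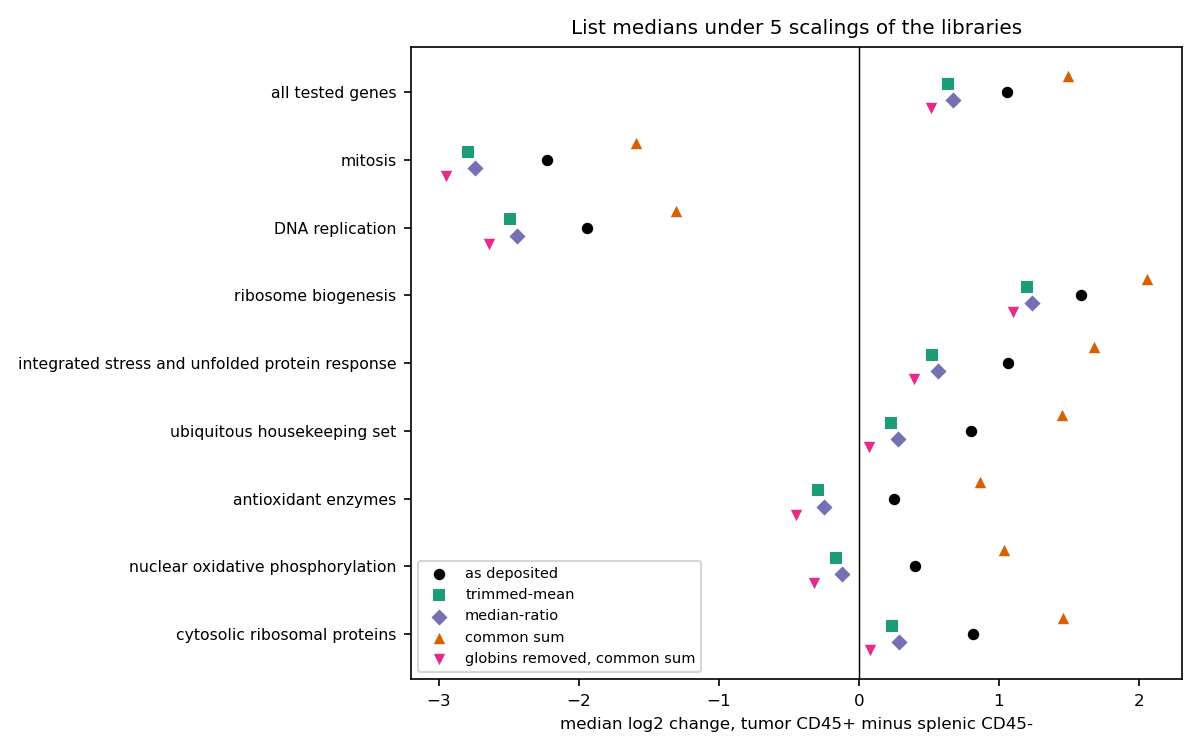
Median log2 change (x axis, tumor CD45+ minus splenic CD45-) of 8 gene lists as deposited and under the 4 other scalings, by marker, with all tested genes for reference. Mitosis and DNA replication lie below 0 and ribosome biogenesis above 0 under each scaling shown, whereas oxidative phosphorylation lies at 0.40 as deposited and at -0.17 with trimmed-mean scaling.

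Markers of other cell types were checked because the gates could hold them. Of 10 tested T and NK cell markers 7 were called higher and 1 lower, against 67.5% and 22.5% of all tested genes. Of these 10, 5 passed the filter through tumor libraries alone. With tumor replicates 2 to 4 averaged the counts were 4 and 1. The list summed to 20.4 FPKM in tumor replicate 1 and 105 to 110 in the other tumor libraries. Gzmb, a protease of killer cells, was at 5.75, 38.4, 36.6 and 35.9 FPKM there, and Lck, a kinase of T cells, was the member called lower (14.1 ± 0.78 to 2.04 ± 1.06 FPKM). Dendritic cell markers summed to 16.6 to 18.3 FPKM in splenic and 276 to 541 in tumor libraries, and endothelial markers to 4.74 to 5.35 and 20.3 to 30.4. In each of these 2 lists 5 of 6 tested genes were called higher, and 4 of the 6 passed the filter through tumor libraries alone. Of 11 tested B and plasma cell markers 4 were called higher and 6 lower, against 67.5% and 22.5% of all tested genes. Of these 11, 3 passed the filter through tumor libraries alone and 2 through splenic libraries alone, so they had to differ. Cd79a, a chain of the B cell receptor, was at 13.2, 13.9 and 14.5 FPKM in splenic and at 1.17, 0.25, 0.15 and 0.05 in tumor libraries. Blnk, which that list also holds and macrophages express, rose to 49.5 ± 4.05 FPKM. Pf4, a platelet chemokine that macrophages can also express, rose from 0.61 ± 0.48 to 667 ± 128 FPKM, while Gp9, a platelet receptor chain, fell from 33.0 ± 1.39 to 0.13 ± 0.13.

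Markers of the tumor's own tissue were present in part. All 14 tested fibroblast and matrix genes and all 7 tested epithelial genes were called higher, and each passed the filter through tumor libraries alone, so it had to differ. Col3a1, a fibrillar collagen, was at 0.68, 0 and 0.02 FPKM in splenic libraries and at 70.4, 109.8, 108 and 108 in tumor libraries, and Fn1, fibronectin, at 0.43, 0.31 and 0.38 and then at 241, 169, 169 and 172. Krt8 and Krt18, keratins of simple epithelia, were at 239, 208, 214 and 215 and at 164, 105, 102 and 95.4 FPKM in tumor libraries and below 1 FPKM in all 6 splenic libraries. Krt5 and Krt14, keratins of squamous epithelium, stood at most at 0.02 and 0.13 FPKM in tumor libraries, and 12 of the 19 matched epithelial markers were below 1 FPKM in every library. The part of such cells in the other values was not tested.

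Splenic CD45-positive libraries, which share the organ of one group and the gate of the other, lay between them for many genes, as values only. They varied more: globins took 42.3%, 29.4% and 52.2% of their summed FPKM. Klf1 was at 271, 613 and 329 FPKM and Slc4a1 at 2367, 1966 and 2161 there, between the levels of the compared groups. Ptprc was at 265, 39.2 and 153 and Spi1 at 99.0, 33.5 and 92.9 FPKM. S100a8 was at 10915, 15675 and 36172 FPKM, far above both compared groups. Of 1038 tested genes at 100 FPKM or more on average in tumor libraries, 22 were below 1 FPKM in every splenic CD45-positive library and 19 in all 6 splenic libraries, among them Ccl8, a chemokine, Stab1, a scavenger receptor, C3ar1 and Krt8. Arg1 was at 0, 0 and 0.03 FPKM in the splenic CD45-positive libraries, and Ccl2 at 5.07, 0 and 2.31.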

How the data were processed

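RNA was extracted with TRIZOL and sequenced by BGI, per the labels' protocols, from cells sorted by FACS. Per the submitters' processing notes, GRCm38.p6 served as the genome, and the aligner and quantifier are, in the sources used here, not given. Each library came as one table that the authors deposited holding normalized values per RefSeq model. The unit is not named in the tables, and FPKM was inferred from the deposited values: length-weighted sums of 971633 to 1174331, much closer to each other than the plain sums of 801072 to 1367791. Depth was read from the steps between low values.

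Of 61685 models 60167 matched a RefSeq gene of GRCm38.p6, and the models of a gene were summed (17603 genes). The 1518 unnamed models held 0.423% to 1.06% of summed FPKM and were left out. A gene had to reach 1 FPKM in 3 of these 7 libraries. The test was limma 3.58.1 under R 4.3.3, applied to log2(FPKM + 1) with no further scaling and a prior variance that follows the mean, and p-values were Benjamini-Hochberg adjusted over all 11208 genes. Log2 changes are on that scale and understate the change of low genes. On simulated data the test recovered 89% of changes of size 1 and 97% of size 2 on the log2 scale, with 5 false calls among the 11208 genes. Only 100 genes of each size were changed there, drawn from genes of higher splenic level, with independent noise. The simulation held no library that stood apart, no near-alike replicates and no shift of most genes. Its rates therefore do not carry over to these libraries. At this depth 1 FPKM on a transcript of 1 kb is 18.2 to 20.7 fragments.

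Named genes were the 12 largest rises and falls without overlap, in each of 42 lists up to 4 called genes in the main direction and 2 in the other, Ptprc, the globins, gene pairs, the highest member of each other-cell list and examples that turned under scaling. Genes outside that rule (those named by rank of level, Cd36, S100a8, Tnf, Il1b, Cd47, Cd274, Cd74, Isg15, Vegfa and further examples) were chosen after their values were seen. Some genes that the rule names are not reported here, though they count in the lists. The lists matched 969 of 975 symbols. The members and lists were chosen with earlier results of these data known. Alternatives were other scalings, pseudocounts, filters, the highest model, all 10 libraries, a replicate block, no prior trend and leaving out each library.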

Additional observations from a re-analysis of the deposited data

Results flagged for a closer look

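In the 4 tumor libraries a value was singled out where its gap to the nearest other library, divided by the range of the group, exceeded the 95% critical value of Dixon, which chance gives in about 1 in 20 groups. Of 82 values checked 41 passed, and in 40 of them the library was replicate 1; over all tested genes 1792 passed, 1603 of them through replicate 1. Its globin share was 10.4% against 1.80% to 1.87%, and it had 10728 genes at 1 FPKM or more against 10942 to 10945. Its total FPKM was also larger: scaling to a common sum divided its values by 0.95 and those of replicates 2 to 4 by 0.78 to 0.79. The sums below were not scaled in this way, so a higher sum need not be a larger share of the library. Small excesses, such as those of Fc receptors, glycolysis and actin genes, cannot be told from the difference in total.

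Replicate 1 held more summed FPKM than replicates 2 to 4 of globins (100910 against 14599 to 15081), haem synthesis enzymes (378 against 171 to 184), red cell clearance and enucleation (495 against 399 to 412) and granulocyte markers (1979 against 222 to 226). It was also above them in Fc receptors and ITAM signalling (8928 against 7523 to 7699), suppressive and checkpoint genes (3964 against 3409.8 to 3456), eosinophil, mast cell and basophil markers (13.01 against 7.42 to 7.96) and megakaryocyte and platelet markers (874 against 602 to 619.7). The same held for epithelial and carcinoma markers (436 against 346 to 353), glycolysis and hypoxia (17292 against 14928 to 15081), nuclear oxidative phosphorylation (13890.2 against 11454 to 11622) and replication-dependent histones (509 against 394 to 412). Higher sums were found too for antioxidant enzymes (5516 against 4309 to 4500.4), cytosolic ribosomal proteins (127962 against 102823 to 103509) and actin cytoskeleton and migration (40150.4 against 37093 to 37425). It held less of chemokine receptors (955 against 1183 to 1225), interferon-stimulated genes (8309.6 against 9998 to 10128), T and NK cell markers (20.4 against 105 to 110.3) and endothelial markers (20.3 against 29.1 to 30.4). It was below them in fibroblast and matrix markers (524 against 565 to 567), integrated stress and unfolded protein response (1874 against 2523 to 2612) and immediate early genes (4099.7 against 6436 to 6792). Replicate 4 was the low library for iron storage and macrophage haem recycling (12968 against 14607 to 14923).

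Among single genes replicate 1 was high, in FPKM, for Ackr1 (0.16 against 0 to 0), Alas2 (224 against 39.4 to 43.4), Epor (0.55 against 0.22 to 0.27) and Fn1 (241 against 169 to 172). High values were also those of Gata1 (0.27 against 0 to 0.02), Hba-a1 (40541 against 5916 to 6292) and Krt18 (164 against 95.4 to 105). So were those of S100a8 (1059.5 against 17.6 to 23.9) and Slc4a1 (3.25 against 0.20 to 0.40). It was low for Atf3 (200.3 against 385 to 405), Col3a1 (70.4 against 108 to 109.8), Gzmb (5.75 against 35.9 to 38.4) and Ptprc (59.4 against 90.1 to 92.5). Low values were also those of Rsad2 (30.7 against 60.5 to 62.0), Tfrc (11.7 against 18.2 to 18.4) and Tnf (69.5 against 220.0 to 229).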

How the results depend on the processing

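Genes called higher numbered 5571 to 9390 over the alternatives and stayed within 1.5 times the 7563 as deposited. Genes called lower (2522) moved further under 2 scalings, to 1621 with a common sum and to 3784 with globins removed. Leaving out 1 library gave 7226 to 7655 higher and 2137 to 2519 lower. With tumor replicates 2 to 4 averaged, an alternative chosen after seeing the data, the counts were 7233 and 2392. Of 182 genes named in the text 4 turned sign after being called: H2-T23 (-0.24 with globins removed, -0.029 with median-ratio and -0.076 with trimmed-mean scaling), Slc2a3 (0.23 with a common sum), Stat5b (-0.064) and Cox6b1 (-0.028), both with globins removed; the cause was not tested. Leaving out 1 library ended the call of 5 of the 182 at least once.

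With the replicate number as a block 7557 genes were called higher and 2573 lower. Deviations of same-numbered libraries correlated at 0.215, 0.106 and 0.068, and 1 of 3 splenic libraries correlated best with its own number. With so few libraries, and tumor replicates 2 and 3 nearly alike, these values cannot decide whether same-numbered libraries were paired. Levels below 1 FPKM rest on few fragments, and the closeness of tumor replicates 2 to 4 limits what the spread of that group can say.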
